A study of Caenorhabditis elegans with 4 samples.

Results

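The wild type L3 larva of Caenorhabditis elegans is described here from the 2 poly(A) RNA libraries of the N2 strain, out of 4 libraries in the series. The members were chosen by genotype label alone, and no measured value took part in the choice. N2 is the standard laboratory strain, and these animals carried no mutation and no treatment. They were grown at 20 °C on nematode growth medium plates, collected whole at L3, the third of the larval stages, and flash frozen. The labels give no count of animals, no sex and no hour of collection, so a library is an average over every tissue of a pooled population. The other 2 libraries came from met-2 set-25 double mutants and were not compared with wild type.

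The libraries are called rWQS019 and rWQS042 after the identifiers in the files, since these do not say which is the first replicate. They held 22849521 and 56879896 counts over 46748 genes. A gene with 0 counts could still have been present at up to 0.131 CPM (counts scaled to a library total of 1000000) in rWQS019 and 0.0527 CPM in rWQS042, taking 3 counts as the limit. Paired values below are given in the order rWQS019 and rWQS042. Levels of different genes were compared as TPM, which divides counts by exon length and sums to 1000000 over the 19641 protein-coding genes matched in the annotation. A single gene was compared between the libraries as CPM. Ribosomal RNA took 0.544% and 0.0972% of the counts, so the shallower library also held more ribosomal RNA. Nothing in the labels says that the libraries came from separate cultures, so the spread between them may be technical. With 1 group there is no comparison between conditions, and no test was run.

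At L3 the larva feeds and grows, the hypodermis builds the next cuticle and sheds the old one at each molt, the vulval precursor cells receive their fates, and germ cells proliferate. Hypodermis, body wall muscle and intestine make up much of the body, whereas each class of neuron is only a few small cells. In bulk RNA of whole animals, fewer cells of a type and less RNA per cell cannot be told apart. Of the protein-coding genes, 28.9% share exon sequence with another annotated gene, eef-1A.1, act-4, tbb-2, sqt-3, rnr-2 and fbn-1 among them. The methods do not state that the libraries mark strand, so the counts of such genes are uncertain to that extent. The treatment of reads matching several alike genes is not given in the sources used here, and where such reads were dropped, gene copies of almost the same sequence read low or at 0 whatever their level.

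The transcriptome was led by the translation machinery. Of 19641 protein-coding genes, 12261 (62.4%) reached 1 CPM in both libraries and 1687 (8.59%) had 0 counts in both. The 158 genes at 1000 TPM or more took 47.7% and 46.6% of all TPM. At the other end, 5345 detected genes lay under 1 TPM and took 0.131% and 0.116%. The 100 genes with most counts took 26.2% and 24.98% of the counts, and 91 genes were among the 100 in both libraries. In rWQS019, 492 genes made up 50% of the counts, against 503 in rWQS042.

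The gene with the highest level was rps-25, a protein of the small ribosomal subunit (chromosome IV, 5947093 to 5947605 in WBcel235), at 9627 and 9245 TPM. It was followed by rpl-41.2 at 8929 and 9498 TPM, rps-23 at 7644 and 7559.8 TPM, rps-8 at 7355 and 7235 TPM and rpl-10 at 6889 and 6797 TPM. Among the 30 highest genes, only eef-1A.1, ubq-2 and Y37E3.8 were not named as ribosomal proteins. The order of rps-25 and rpl-41.2 turned between the libraries, so these neighbours were not separated by more than their spread. The 81 genes named as cytosolic ribosomal proteins took 16.6% and 15.7% of all counts (16.14% ± 0.663, SD, n = 2), the largest share of the classes examined. For such shares the 95% Wilson interval was at most 0.0305 percentage points wide, and these intervals cover counting error only. Their median level was 3846 TPM, against 4.89 TPM over all protein-coding genes. The elongation factors that serve the ribosome were close behind, with eef-1A.1 at 6378 and 6680.3 TPM, eef-2 at 2881 and 3068 TPM and eef-1G at 1744 and 1853 TPM, down to eef-1B.2 at 364 and 379 TPM. Reads of eef-1A.1 and its near-identical copy eef-1A.2, at 1294 and 1587 TPM, may have been shared out between them. The leading genes not named as ribosomal proteins or elongation factors included genes of lipid binding and energy. The gene ubq-2, which codes for ubiquitin fused to a ribosomal protein, stood at 5409.6 and 5161 TPM. The fatty acid and retinol binding protein far-1 was at 4977 and 4442 TPM and the adenine nucleotide translocator ant-1.1 at 4694 and 4384 TPM. The asp-1 gene, which codes for an intestinal aspartyl protease, stood at 2431 and 2363 TPM, and crt-1, the calreticulin of the endoplasmic reticulum, at 2396 and 2194 TPM. Of the 30 genes with the highest TPM, 28 were among the 30 in both libraries.

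**Figure D1:**
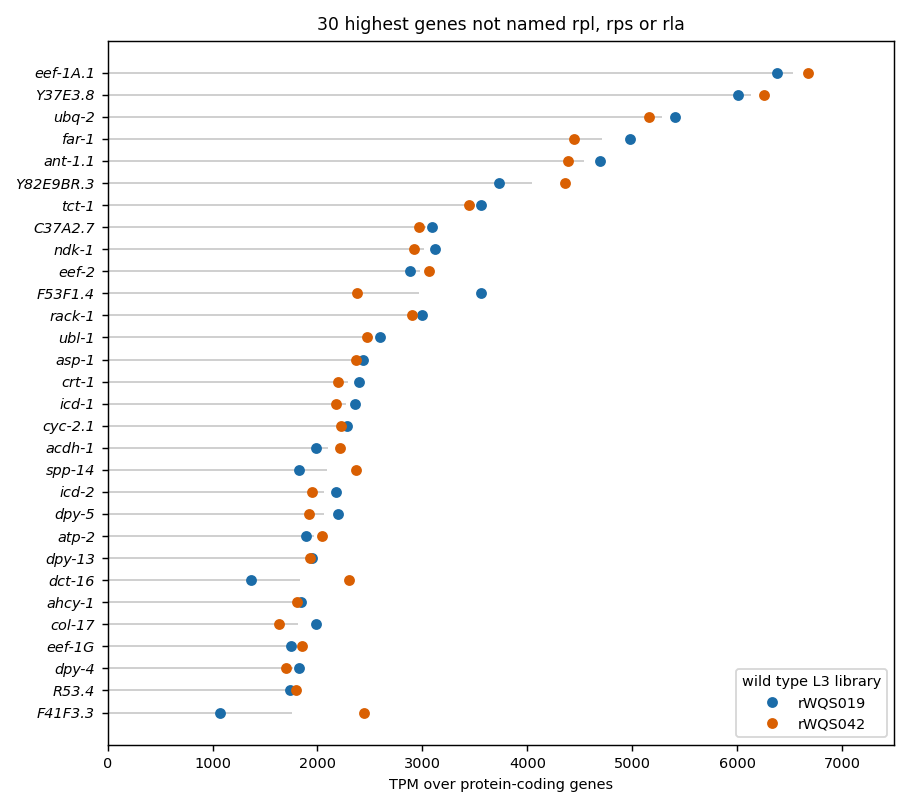
The 30 highest genes whose names do not begin with rpl, rps or rla, ordered by mean TPM, with a point for each wild type library and a line from 0 to the mean. The points of eef-1A.1 lie at 6378 and 6680.3 TPM, and those of F41F3.3, last in the order, lie furthest apart in proportion, at 1068 and 2442 TPM.

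Among the other classes, cuticle collagens took the most counts, 2.3% and 2.49% of the library over 176 genes. Few collagens carried this share, since the 10 with most counts held 59.7% and 52.8% of all collagen counts. The levels ran from 8 collagens at 1000 TPM or more to 68 under 1 TPM. The highest were dpy-5 at 2198 and 1919.9 TPM, dpy-13 at 1944 and 1925 TPM and col-17 at 1989 and 1632 TPM. The first 2 are needed for normal body length. Subunits of the vacuolar ATPase, the proton pump of lysosomes and of the excretory and intestinal apical membranes, took 1.08% and 1.06%, and all 20 passed 1 CPM in both libraries. Their highest members were vha-2 at 1726 and 1603 TPM, vha-10 at 1042 and 1050.3 TPM and vha-8 at 952 and 981 TPM. Cathepsin B and aspartyl proteases, which digest food and lysosomal cargo, took 0.971% and 1.03%, led by asp-1, by cpr-5 at 1028 and 1222 TPM and by asp-6 at 961 and 1151 TPM.

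The cytoskeleton was divided unevenly among its genes. The 5 actins took 0.399% and 0.473% of the counts, with the muscle actin act-4 at 1396 and 1667 TPM and the intestinal microvillar actin act-5 at 861 and 1235 TPM above the others. The actins act-1, act-2 and act-3 are nearly identical in sequence, so the level of each is uncertain. Among 16 tubulins, tbb-2 stood at 891 and 886 TPM, tba-2 at 576 and 628 TPM and tbb-1 at 459 and 439 TPM. Core and linker histones took only 0.127% and 0.0917%. Messages of replication-dependent histones mostly lack a poly(A) tail, and a poly(A) library therefore under-represents them. The highest was his-72, a replacement histone H3.3, at 371 and 268 TPM, followed by his-37 at 364 and 237 TPM and his-41 at 314 and 275 TPM, and 26 of the 80 histone genes, many of them alike in sequence, had 0 counts in both libraries.

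Several lipid-handling, secreted and signalling families were present at a low share of the counts with a few strong members. Of the fatty acid binding families, far-2 at 1201 and 1508 TPM and lbp-6 at 799 and 1070.4 TPM followed far-1. Among the desaturases that make polyunsaturated fatty acids, fat-2 stood at 617 and 552 TPM and fat-1 at 424 and 393 TPM. The delta-9 desaturases differed among themselves, with fat-6 at 281 and 282 TPM, fat-7 at 4.77 and 5.64 TPM and fat-5 at 1.31 and 1.13 TPM. Saposin-like spp-14 stood at 1821 and 2367 TPM and spp-5 at 745 and 1241 TPM, the lysozyme lys-1 at 359 and 466 TPM and the C-type lectin clec-63 at 738 and 853 TPM. These families include intestinal antimicrobial proteins. Hedgehog-related proteins, which are secreted mostly by epithelia, were led by grd-5 at 539 and 333 TPM and grd-14 at 476 and 254 TPM, and 37 of their 59 genes (62.7%) passed 1 CPM in both libraries, near the 62.4% of all protein-coding genes. The patched-related proteins, relatives of the hedgehog receptor, passed in 26 of 27 genes, with ptr-4 at 61.3 and 92.7 TPM.

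Further gene families are described by their highest members. Among 58 transthyretin-like genes ttr-16 stood at 1114 and 868 TPM and ttr-15 at 524 and 619 TPM. Among 70 abu and pqn genes, many of which are expressed in the pharyngeal lining, abu-14 stood at 893 and 550.3 TPM and pqn-74 at 327 and 190.5 TPM. Among 35 cuticlins, cut-2 at 433 and 1216 TPM was far above cutl-20 at 33.5 and 23.4 TPM and cutl-15 at 23.3 and 27.6 TPM. Astacin metalloproteases were led by nas-15 at 121.6 and 90.0 TPM, the small nspc peptides by nspc-14 at 206 and 199 TPM and the oac acyltransferases by oac-46 at 55.8 and 52.3 TPM. Of the 27 genes named ssp, ssq, sss or nspd, which are expressed in sperm, none reached 1 CPM in both libraries, and nspd-7 was highest at 3.5 and 4.15 TPM.

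**Figure D2:**
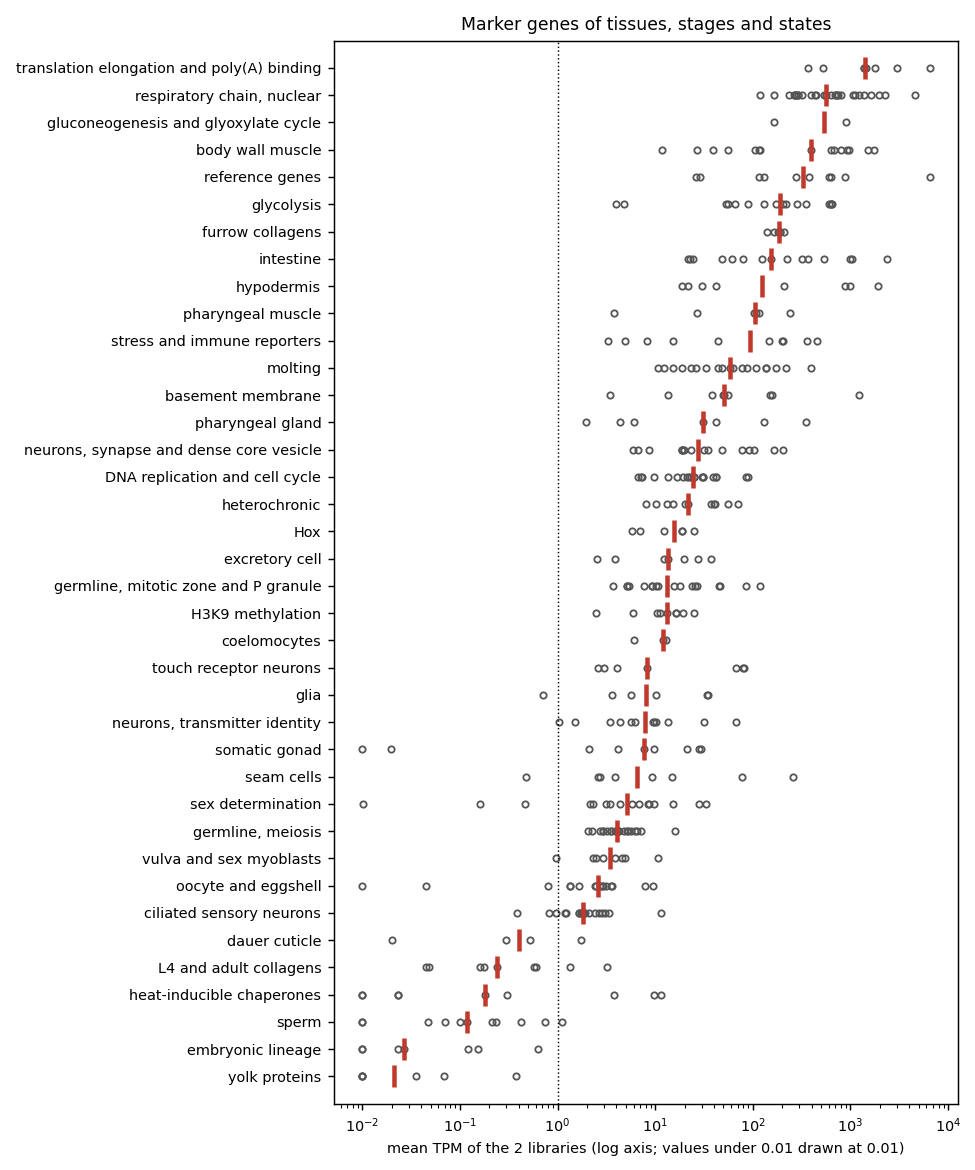
Mean TPM of each marker gene (open circles, log axis) by list, with a red bar at the list's median and a dotted line at 1 TPM. The lists run from elongation factors, with a median of 1409 TPM, to yolk proteins, with a median of 0.0213 TPM.

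The marker genes of the large tissues were all present. All 15 body wall muscle genes, all 15 intestinal genes, all 8 hypodermal genes and all 6 pharyngeal muscle genes passed 1 CPM in both libraries. The median of the body wall muscle list was 401 and 383 TPM, the highest of the tissue lists. Without the genes that overlap another, the median of mean levels was 659 TPM. Thin filament proteins led it, with the troponin C pat-10 at 1731 and 1772 TPM, act-4 at 1396 and 1667 TPM and the troponin I unc-27 at 952 and 1004 TPM. The major myosin heavy chain unc-54 stood at 644 and 958 TPM and the minor one myo-3 at 94.2 and 136 TPM. The MyoD homologue hlh-1, the transcription factor of the lineage, was lowest at 10.5 and 12.9 TPM. Pharyngeal muscle was represented by its own troponins tni-4 at 225 and 259.5 TPM and tnc-2 at 103 and 127 TPM and by the myosin myo-2 at 95.1 and 121 TPM, with the Nkx-type factor ceh-22 lowest at 4.09 and 3.57 TPM. The glands of the pharynx were seen through phat-4 at 388 and 306 TPM, phat-2 at 164 and 96.6 TPM and phat-1 at 51.3 and 32.4 TPM, members of a family of secreted mucin-related proteins, while their regulator hlh-6 was lowest at 2.27 and 1.61 TPM.

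The intestinal list had a median of 117 and 196 TPM. Its structural and digestive members asp-1, act-5 and asp-3 stood highest, asp-3 at 1020.2 and 963 TPM, while the GATA factors of the intestine were low, with elt-2 at 19.6 and 26.1 TPM and elt-7 at 28.7 and 14.3 TPM. The ferritin ftn-1, which stores iron, was at 82.8 and 13.2 TPM and was the member furthest apart between the libraries. The hypodermal list had a median of 97.1 and 152 TPM. Without the genes that overlap another, the median of mean levels was 207 TPM. The list was led by the collagens dpy-13, sqt-3 at 714 and 1267 TPM and rol-6 at 869.9 and 893 TPM. The nuclear receptor nhr-25 was lowest at 18.6 and 19.1 TPM, and elt-3, a hypodermal GATA factor, stood at 30.9 and 29.4 TPM. Basement membrane genes had a median of 47.5 and 55.6 TPM. The SPARC homologue ost-1 led them at 1290.3 and 1149 TPM. The collagen IV chains emb-9 and let-2, which assemble into 1 trimer, stood at 90.2 and 224 TPM and 92.5 and 211 TPM, so their levels followed each other in both libraries. The laminin lam-3 was lowest at 3.14 and 3.69 TPM.

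Genes of the nervous system were detected in every list, at levels under those of muscle and intestine. All 16 genes of synapses and dense core vesicles passed 1 CPM in both libraries, with a median of 26.7 and 27.99 TPM. Synaptobrevin snb-1 was highest at 216 and 191 TPM, followed by the neuropeptide processing enzymes egl-21 at 182 and 147 TPM and egl-3 at 118 and 86.6 TPM, and rgef-1 was lowest at 5.59 and 6.37 TPM. Transmitter identity genes had a median of 7.8 TPM. Glutamate decarboxylase unc-25, of GABA neurons, led them at 73.5 and 62.3 TPM. The aromatic amino acid decarboxylase bas-1 stood at 26.3 and 36.9 TPM, the vesicular acetylcholine transporter unc-17 at 15.4 and 11.7 TPM and the octopamine enzyme tbh-1 at 1.09 and 0.977 TPM. The genes unc-17 and cha-1 overlap on the chromosome, so their counts are uncertain. Touch receptor neurons are only a handful of cells, yet their microtubule genes mec-17, mec-12 and mec-7 stood at 84.2 and 79.4 TPM, 83.3 and 75.9 TPM and 73.6 and 62.4 TPM. The first of these overlaps another annotated gene, as does mec-12, and the channel gene mec-4 was lowest at 2.74 and 2.4 TPM. Ciliated sensory neurons gave the lowest median of the neuronal lists, 1.8 TPM over 19 genes, from the RFX factor daf-19 at 11.8 and 11.3 TPM to the cyclic nucleotide-gated channel tax-4 at 0.432 and 0.342 TPM.

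Neuropeptide genes were much more broadly detected than sensory receptors. Of 31 FMRFamide-like peptide genes, 30 (96.8%) passed 1 CPM in both libraries, beside 62.4% of all protein-coding genes. They were led by flp-14 at 168.9 and 156 TPM, flp-1 at 169.02 and 144 TPM and flp-9 at 135 and 105 TPM. Of 71 other neuropeptide-like genes, 61 (85.9%) passed, and the highest were nlp-24 at 1374 and 1186 TPM, nlp-33 at 1293 and 744 TPM and nlp-36 at 249 and 297 TPM. Several nlp genes, nlp-29 and nlp-33 among them, are expressed in the epidermis as antimicrobial peptides rather than in neurons. Of 39 insulin-like peptide genes, 20 (51.3%) passed, led by ins-27 at 65.7 and 71.3 TPM, ins-35 at 45.3 and 58.2 TPM and ins-17 at 41.6 and 30.2 TPM. Channels of the cys-loop family passed in 57 of 77 genes (74.0%). Gap junction innexins passed in 23 of 24 (95.8%), with inx-12 at 149 and 174 TPM and inx-13 at 127 and 158 TPM. The insulin-like and cys-loop shares lay closest to that of all protein-coding genes.

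Smaller somatic tissues had lower medians than muscle, intestine and hypodermis, from 13.5 TPM for the excretory cell and 12.1 TPM for coelomocytes to 3.41 TPM for the vulva and sex myoblasts. In glia, itx-1 stood at 35.3 and 32.5 TPM and vap-1, secreted by the amphid sheath, at 29.2 and 39.7 TPM, while hlh-17 was under 1 TPM at 0.915 and 0.518 TPM. The excretory canal was represented by exc-9 at 44.8 and 30.2 TPM and the aquaporin aqp-8 at 25.5 and 30.05 TPM, down to the transporter pgp-12 at 2.09 and 3.02 TPM. The scavenger coelomocytes were represented by cup-4 at 13.5 and 12.2 TPM and unc-122 at 6.32 and 5.75 TPM. In the seam cells, the stem-like cells of the lateral epidermis, grd-13 and grd-3 stood at 308 and 207 TPM and 97.4 and 58.5 TPM, well above the seam transcription factors egl-18 at 14.1 and 15.8 TPM and nhr-73 at 0.226 and 0.717 TPM. The somatic gonad list had a median of 7.72 TPM, or 4.14 TPM without the genes that overlap another, and was led by ceh-18 at 29.7 and 29.6 TPM, the ADAMTS protease gon-1 at 27.6 and 29.1 TPM and fos-1 at 27.9 and 14.9 TPM. Its early lineage gene hnd-1 had 0 counts in both libraries, and ehn-3, of the gonad precursors, had 0 and 2 counts. The vulva and sex myoblast list had a median of 3.41 TPM, with the FGF receptor egl-15 at 10.9 and 10.6 TPM, cog-1 at 5.42 and 4.45 TPM, zmp-1 at 4.66 and 4.39 TPM and mls-2 lowest at 1.09 and 0.836 TPM.

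Genes of the proliferating germ line were present, while markers of sperm were low. All 18 genes of the mitotic zone and P granules passed 1 CPM in both libraries, with a median of 14.02 and 12.7 TPM. The RNA-binding protein car-1 was highest at 116 and 121 TPM, the Vasa-related helicase glh-1 followed at 84.3 and 86.3 TPM and the helicase cgh-1 at 39.3 and 52.1 TPM, with gld-3 lowest at 3.61 and 3.86 TPM. The Notch receptor of germ stem cells, glp-1, stood at 7.68 and 7.54 TPM. Meiotic genes passed as well, all 21 of them, at a lower median of 4.09 TPM, from him-17 at 15.5 and 16.4898 TPM and the axis proteins htp-1 at 6.43 and 7.76 TPM and htp-3 at 6.26 and 6.92 TPM down to the pairing centre protein zim-2 at 2.3 and 1.78 TPM. Oocyte and eggshell genes had a median of 2.61 TPM. Among them spn-4 stood at 8.48 and 10.3 TPM and the eggshell proteoglycan cpg-2 at 11.4 and 4.37 TPM, and the vitelline layer gene perm-2 had 0 counts in both libraries. Of 11 sperm genes only 2 passed 1 CPM in both libraries, and the median was 0.118 TPM. The highest was spe-44, the transcription factor that starts the sperm programme, at 1.07 and 1.17 TPM, and the sperm phosphatase gsp-3 had 0 counts in both libraries. The major sperm protein genes, 31 near-identical copies, had 18 and 17 counts in total, but reads shared by such copies may not have been counted. The highest, msp-31, was at 1.04 and 0.419 TPM, and 21 had 0 counts in both libraries.

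Markers of other stages were low. The 6 vitellogenin genes, the yolk proteins of the adult intestine, had 50 and 127 counts in all, with vit-1 at 0.381 and 0.375 TPM, vit-6 at 0.0589 and 0.0794 TPM and vit-5 at 0 counts. None of 7 embryonic lineage genes passed 1 CPM in both libraries, and the endoderm factor end-1 was highest at 0.995 and 0.268 TPM. Of the L4 and adult collagens, col-38 stood at 3.38 and 3 TPM and bli-2 at 1.5 and 1.19 TPM, while col-19, the usual marker of the adult cuticle, was at 0.0533 and 0.0432 TPM. Dauer cuticle genes were led by cut-6 at 1.5 and 1.95 TPM, and the dauer cuticlin cut-1 had 0 and 3 counts. Against these, the 6 furrow collagens, which mark the annular furrows of the cuticle and are made together in each molting cycle, stood between 93.3 and 184 TPM for dpy-3 and 149 and 264 TPM for dpy-7.

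Genes that time larval development were all expressed. All 11 heterochronic genes passed 1 CPM in both libraries. The translational repressor lin-41, which acts in the late larva, was highest at 67.6 and 73.6 TPM. It was followed by the period homologue lin-42 at 30.3 and 79.9 TPM and the zinc finger factor blmp-1 at 41.6 and 40.7 TPM. The early timers lin-14 and lin-28 were still present, at 18.6 and 21.7 TPM and 16.482 and 14.1 TPM, beside lin-29, the factor of the larva-to-adult switch, at 11.6 and 14.7 TPM, and hbl-1 was lowest at 6.39 and 9.54 TPM. The long noncoding RNA lep-5, which promotes the timing of male tail maturation, stood out among lincRNAs at 634 and 548 CPM. All 19 molting genes passed as well, with a median of 48.8 and 74.2 TPM. They were led by mlt-8 at 419.6 and 379 TPM and the apical matrix proteins noah-2 at 154 and 281 TPM and noah-1 at 113 and 230.0 TPM. The nuclear receptor nhr-23, which drives the molting cycle, stood at 18.5 and 27.9 TPM, and the protease inhibitor bli-5 was lowest at 13.8 and 7.73 TPM.

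Cell division genes were expressed in all 20 cases, with a median of 24.3 TPM. The ribonucleotide reductase subunit rnr-2 stood at 64.6 and 115 TPM, PCNA pcn-1 at 89.2 and 82.8 TPM and the cell cycle inhibitor cki-1 at 56.99 and 27.2 TPM, and the licensing factor cdt-1 was lowest at 6.45 and 6.74 TPM. The 6 Hox genes lay within a narrow range, from ceh-13 at 22.2 and 27.6 TPM and php-3 at 20.4 and 17.2 TPM through lin-39 at 19.7 and 17.8 TPM to egl-5 at 6.36 and 5.17 TPM. In the sex determination pathway, fem-1 at 33.1 and 32.7 TPM and fem-2 at 28.4 and 27.3 TPM, which promote male development and are named for the phenotype of their loss, and the calpain tra-3 at 15.9 and 14.8 TPM were highest. The secreted signal of male fate her-1 was at 0.176 and 0.143 TPM, xol-1, the early switch of the pathway, at 0.0202 and 0 TPM and the male tail factor dmd-3 at 0.528 and 0.399 TPM.

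Genes of H3K9 methylation were expressed at moderate levels. The methyltransferase met-2 (chromosome III, 8375300 to 8380848 in WBcel235) stood at 17.1 and 15.5 TPM. The second enzyme, set-25 (chromosome III, 13283824 to 13293090), stood at 4.67 and 7.2 TPM and overlaps another annotated gene. The heterochromatin protein hpl-2 was highest at 21.2 and 28.2 TPM, cec-4, which anchors methylated chromatin at the nuclear envelope, stood at 19.8 and 18.4 TPM, and set-32 was lowest at 2.86 and 2.1 TPM.

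Genes of mitochondrial respiration were among the highest of the metabolic genes. The 29 nuclear genes of the respiratory chain had a median of 522 and 603 TPM. After ant-1.1, cytochrome c cyc-2.1 stood at 2278 and 2228 TPM and the ATP synthase subunit atp-2 at 1895 and 2039 TPM, with nuo-5, of complex I, lowest at 71.4 and 166.1 TPM. The mitochondrial genome added 0.573% and 0.585% of the counts. The 16 glycolytic genes had a median of 188 TPM, led by the aldolase aldo-2 at 621 and 664 TPM, the enolase enol-1 at 594 and 669 TPM and gpd-3 at 625 and 629 TPM. Among the glyceraldehyde phosphate dehydrogenases, gpd-2 and gpd-3 stood far above gpd-4, which was at 5.32 and 2.7 TPM. Reads of gpd-2 and gpd-3, whose sequences are nearly identical, may have been shared out. The glyoxylate cycle enzyme icl-1 stood at 1509 and 308 TPM and the gluconeogenic pck-1 at 147 and 181 TPM.

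The propionate shunt, a pathway that breaks down propionate without vitamin B12, was strongly expressed, and its genes were listed after their values were seen. Its acyl-CoA dehydrogenase acdh-1 stood at 1981 and 2214 TPM, ech-6 at 1542 and 1411 TPM, alh-8 at 694 and 852 TPM, hphd-1 at 641 and 704 TPM and hach-1 at 609 and 380.3 TPM. The B12-dependent route, with pccb-1 at 226 and 234 TPM, pcca-1 at 198 and 198 TPM, mce-1 at 105 and 72.9 TPM and mmcm-1 at 94.2 and 77.3 TPM, lay below every gene of the shunt in both libraries. The bacterial food is not given in the labels.

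The 10 genes commonly used as expression references covered a wide range of levels and differed little between the libraries. Their levels were 6378 and 6680.3 TPM for eef-1A.1, 891 and 886 TPM for tbb-2, 625 and 629 TPM for gpd-3, 592 and 606 TPM for gpd-2, 386 and 370.1 TPM for tba-1 and 261 and 288 TPM for act-1. The lower references were cdc-42 at 137 and 125 TPM, iscu-1 at 118.5 and 115 TPM, ama-1 at 22.8 and 34.4 TPM and pmp-3 at 26.2 and 26.8 TPM. The largest difference was that of ama-1, the large subunit of RNA polymerase II, with a log2 ratio of rWQS042 over rWQS019 of 0.58 on the CPM scale. By comparison, pmp-3 had a log2 ratio of 0.02 and tbb-2 of -0.02.

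Stress reporters ranged from high to silent. The mitochondrial chaperones hsp-6 and hsp-60 stood at 399 and 503 TPM and 281 and 433 TPM and the metallothionein mtl-2 at 86.1 and 324 TPM, whereas mtl-1 was at 4.8 and 1.83 TPM. The heat-inducible chaperones were low, but more so in 1 library. The small heat shock gene hsp-16.2 was at 20.7 and 2.12 TPM, hsp-16.41 at 18.1 and 1.57 TPM and hsp-70 at 6.64 and 0.87 TPM. Each of these 3 was several-fold higher in rWQS019, with log2 ratios of rWQS042 over rWQS019 of -3.29, -3.52 and -2.94 on the CPM scale. Only 3 of the 9 listed genes had a mean of at least 5 CPM. All 3 were over 2-fold higher in rWQS019, beside 3.08% of all genes. The hsp-16 genes lie in near-identical pairs, so the split among them is uncertain. The endoplasmic reticulum chaperone hsp-4 was at 164 and 125 TPM.

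**Figure D3:**
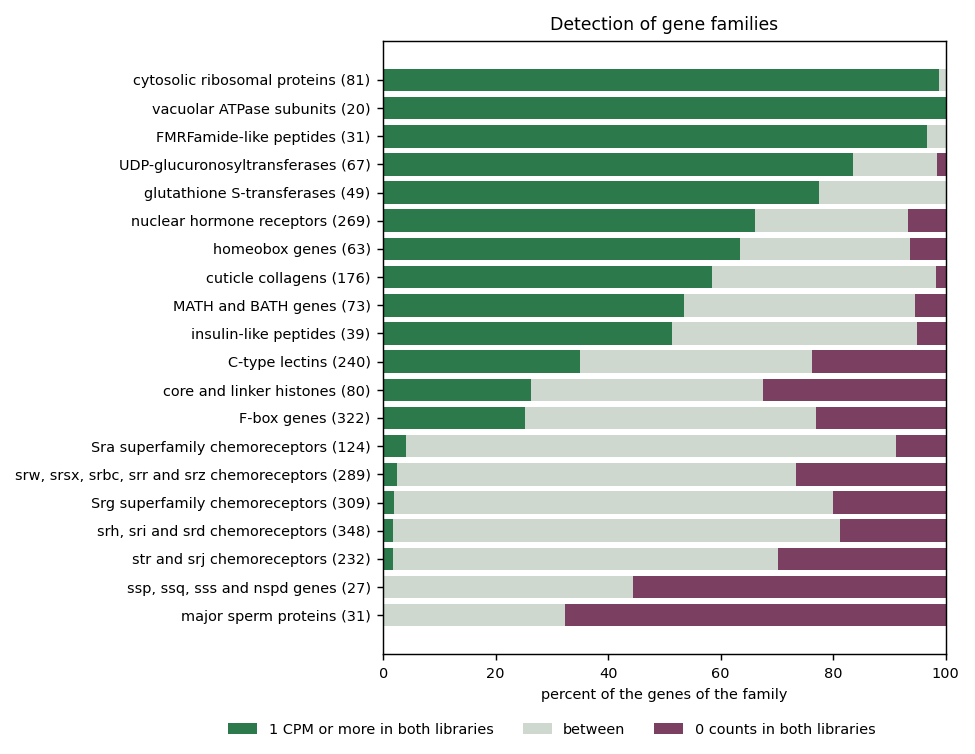
Share of the genes of each family that reached 1 CPM in both libraries (green), that had 0 counts in both (purple) or that fell between (grey), with the number of genes in parentheses. The vacuolar ATPase is fully green, and no major sperm protein gene reached 1 CPM in both libraries.

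Of the named protein-coding families examined, the chemoreceptors held the most genes at 0 counts in both libraries and were the largest family. They are the G protein-coupled receptors through which sensory neurons detect odours and tastes, each usually used by very few cells. Of 1302 chemoreceptor genes, 28 (2.15%) reached 1 CPM in both libraries, against 62.4% of all protein-coding genes. All of them together had 7620 and 15467 counts. Of these genes, 284 (21.8%) had 0 counts in both libraries, beside 8.59% of all protein-coding genes. This share was higher in several smaller families, among them major sperm proteins (67.7%), core and linker histones (32.5%) and C-type lectins (23.75%). Of the chemoreceptor genes, 797 had at most 3 counts in each library, the limit under which a gene could not be told from absent. A few stood apart. The gene srr-4 was highest at 51.2 and 39.2 TPM, followed by srv-1 at 21.5 and 18.4 TPM and srr-1 at 15.3 and 10.2 TPM, and srv-1 overlaps another annotated gene. Next among the 28 were srw-86 at 13.6 and 3.81 TPM, str-176 at 4.87 and 6.16 TPM, srh-237 at 5.78 and 5.14 TPM and srj-14 at 4.67 and 4.27 TPM, and the levels of the last 3 lay close together. The gene srh-2 was at 6.94 and 0.315 TPM, nearly all of it in rWQS019.

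Other large families were divided between silent and expressed members. Of 322 F-box genes, 81 reached 1 CPM in both libraries and 74 had 0 counts in both, with fbxa-72 at 25.1 and 27.5 TPM and fbxa-65 at 12.5 and 19.3 TPM highest. Of 240 C-type lectins, 84 reached it and 57 had 0 counts, with clec-63 at 738 and 853 TPM and clec-1 at 275 and 141 TPM highest. Of 73 MATH and BATH genes, which code for substrate adaptors of ubiquitin ligases, 39 reached it, led by bath-36 at 101 and 83.2 TPM. Of 37 pals genes, a family tied to the response to intracellular pathogens, 10 reached it, led by pals-24 at 37.2 and 19.4 TPM and pals-23 at 25.4 and 14.2 TPM. Among nuclear hormone receptors, 178 of 269 (66.2%) reached it, near the 62.4% of all protein-coding genes. They were led by nhr-68 at 72.9 and 72.9 TPM, the lipid regulator nhr-49 at 77.1 and 60.04 TPM and nhr-114 at 54.8 and 75.5 TPM. Homeobox genes of the ceh series reached 1 CPM in 40 of 63 cases (63.5%), also near that share, led by ceh-20, a Hox cofactor, at 57.03 and 51.2 TPM. The chemoreceptors made up 16.8% of all protein-coding genes with 0 counts in both libraries and 6.63% of all protein-coding genes. In the same order, F-box genes made up 4.39% and 1.64% and C-type lectins 3.38% and 1.22%. Genes with a sequence name only made up 55.3% of the silent genes and 44.5% of all.

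Little of the library was noncoding. Protein-coding genes took 98.2% and 98.8% of the counts. Of 15363 piRNA loci, 13823 had 0 counts in both libraries and 117 reached 1 CPM in both, and 116 of these 117 overlap an exon of another annotated gene. The methods do not state that strand was kept, so such counts cannot be assigned to the piRNA. The same holds for the 3 microRNA loci that reached 1 CPM in both libraries, all of which overlap another gene. Among noncoding genes clear of other exons, lep-5 was highest of the lincRNAs, and the noncoding RNAs tts-2 and tts-1 were at 192 and 119.3 CPM and 146 and 19.8 CPM.

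Expressed genes were unevenly spread over the genome. The share of protein-coding genes at 1 CPM or more in both libraries was lowest on chromosome V, 48.98% of 4931, and highest on chromosome III, 76.0% of 2587. Chromosome V holds 886 of the chemoreceptor genes. With chemoreceptors, F-box genes, C-type lectins and nuclear hormone receptors left out, the share on chromosome V was 60.1%, still the lowest, against 78.1% on chromosome III. Within the 5 autosomes, 68.2% of the genes in the central 50% of each chromosome reached 1 CPM in both libraries, against 52.2% of those in the outer parts. The shares with 0 counts in both libraries were 6% and 13.2%. Of the ribosomal protein genes on autosomes, 56 lay in the central parts and 23 in the outer parts, beside 9457 and 7509 of all protein-coding genes. On the X chromosome 70.6% of the genes reached 1 CPM in both libraries. Among genes at a mean of 1 TPM or more, the median level on X was 12.1 and 11.6 TPM, against 15.9 and 15.9 TPM on the autosomes. The ratio of these medians was 0.764 and 0.731. It depended on which genes were counted, and with no minimum level it was 1.3, above 1. At a minimum mean of 5 TPM it was 0.825.

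The 2 libraries resembled each other in most genes and differed clearly in a minority. Over the 10278 genes with a mean of at least 5 CPM, the median difference was 1.18-fold, and 83.2% lay within 1.5-fold. Over 2-fold higher in rWQS042 were 256 genes (2.49%), and over 2-fold higher in rWQS019 were 317 genes (3.08%). The balance turned with the scaling, with 282 and 288 genes under edgeR's TMM and 287 and 273 under DESeq2's size factors. Both libraries carry the same label, so these are differences between samples of 1 group. The deeper library, rWQS042, also held less ribosomal RNA, and the part of depth and ribosomal RNA in these differences was not tested.

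The cuticle collagens differed more often than genes as a whole, mostly in 1 direction. Of 89 collagens with a mean of at least 5 CPM, 22 (24.7%) were over 2-fold higher in rWQS042, against 2.49% of all genes, and 4 (4.49%) over 2-fold higher in rWQS019, against 3.08%. The collagens that were highest overall did not take part, with log2 ratios of rWQS042 over rWQS019 of -0.21 for dpy-5, -0.03 for dpy-13 and -0.30 for col-17 on the CPM scale. Among the rest, col-42 was at 12.3 and 93.3 CPM and col-98 at 17.5 and 117 CPM, log2 ratios of 2.92 and 2.73. All 6 furrow collagens were higher in rWQS042, with log2 ratios between 0.64 for dpy-8 and 0.97 for dpy-3, none of them over 2-fold. In the other direction, col-162 was at 78.6 and 28.2 CPM and col-77 at 376 and 157 CPM.

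A cluster of collagens on the X chromosome differed together. It spans 6280016 to 6335221 of X in WBcel235 and holds col-166 to col-171 and 5 other protein-coding genes. The collagen col-166 was at 116 and 496 CPM, col-167 at 66.8 and 271 CPM, col-168 at 28.4 and 59.0 CPM, col-169 at 31.3 and 145 CPM and col-170 at 11.4 and 44.7 CPM. All 5 were over 2-fold higher in rWQS042, beside 2.49% of all genes, with log2 ratios between 1.06 and 2.21. Their exon lengths were 906 or 903 bases, and whether reads were shared among them was not examined. The last of the cluster, col-171, had 2 counts in each library. The 5 other genes, among them lev-9, mom-1 and chtb-3, all lie between col-166 and col-167. Their log2 ratios ran from -0.96 to 0.66. Of them, mom-1 and npr-38 had means of 2.27 and 0.69 CPM, under the minimum of 5 CPM used for ratios elsewhere. The cluster was picked after its values were seen.

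**Figure D4:**
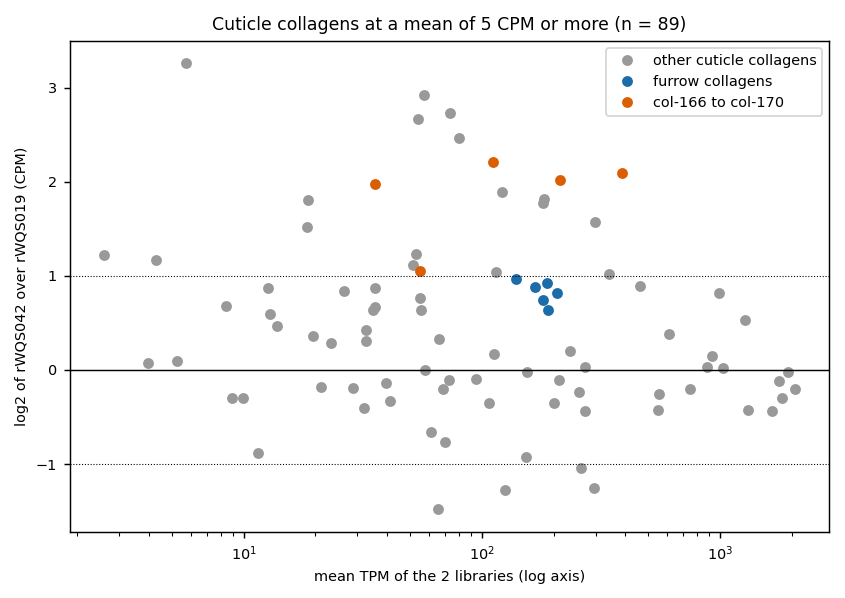
The 89 cuticle collagens with a mean of at least 5 CPM, by mean TPM (log axis) and log2 ratio of rWQS042 over rWQS019, with dotted lines at 2-fold. Most points past a dotted line lie above it, and col-166 to col-170 (orange) all do, while the furrow collagens (blue) lie under it.

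Some other cuticle and molting genes differed as well. Of 19 cuticlins with a mean of at least 5 CPM, only cut-2 was over 2-fold apart (5.26%), beside 5.58% of all genes. The cuticlin cut-2 was at 354 and 985 CPM, the apical matrix protein fbn-1 at 38.5 and 215 CPM, noah-1 at 376 and 763 CPM and lin-42 at 107 and 280.0 CPM, each higher in rWQS042. The astacin protease nas-36, which helps to shed the old cuticle, was lower there, at 92.8 and 39.8 CPM. Of 19 molting genes with a mean of at least 5 CPM, 2 were over 2-fold higher in rWQS042 and 1 over 2-fold higher in rWQS019, beside 2.49% and 3.08% of all genes, and the median log2 ratio was 0.12. In C. elegans many collagen and molting genes are known to be expressed in pulses, once in each larval stage. The collagen IV genes emb-9 and let-2 belong to the basement membrane, not to the cuticle. They were at 446 and 1100.1 CPM and 475 and 1073 CPM, both over 2-fold higher in rWQS042. They were the only 2 so far apart of 9 basement membrane genes with a mean of at least 5 CPM, beside 2.49% of all genes.

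The UDP-glucuronosyltransferases, which conjugate toxins for excretion, also differed often. Of 43 of these genes with a mean of at least 5 CPM, 6 were over 2-fold higher in rWQS042 and 11 over 2-fold higher in rWQS019, together 39.5%, against 5.58% of all genes in either direction. The highest of the family, ugt-22 at 109 and 196 TPM, ugt-12 at 74.1 and 95.2 TPM and ugt-62 at 55.0 and 91.2 TPM, were under 2-fold apart. Past 2-fold, ugt-26 at 87.0 and 29.4 TPM was higher in rWQS019 and ugt-46 at 31.6 and 66.5 TPM higher in rWQS042. Of 30 cytochrome P450 genes, 4 and 3 were over 2-fold higher in rWQS042 and in rWQS019, together 23.3% beside the same 5.58%, and the highest of the family was cyp-35A2 at 55.5 and 90.5 TPM. Of 25 glutathione S-transferases, 3 were over 2-fold higher in rWQS042 and none in rWQS019, beside 2.49% and 3.08% of all genes, and 21 were higher in rWQS042 by any amount, with a median log2 ratio of 0.60. The leading members were gst-1 at 264 and 202 TPM, gsto-1 at 162 and 238 TPM and gst-10 at 136 and 245 TPM. None of 80 ribosomal protein genes was over 2-fold apart, beside 5.58% of all genes. The same held for 20 vacuolar ATPase subunits, 30 FMRFamide-like peptides, 31 hedgehog-related proteins and 30 cys-loop channels. In families of that size, having none lies near the share of all genes.

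Among genes with a mean of at least 10 CPM, nspe-1 had the largest ratio, 1.14 and 48.5 CPM, a log2 ratio of rWQS042 over rWQS019 of 5.39. It was followed by Y48E1B.8 at 8.45 and 107 CPM, C17F4.7 at 71.5 and 799.7 CPM and the arginine kinase argk-1 at 2.36 and 23.8 CPM. Next came srlf-34 at 10.9 and 92.3 CPM, the tubulin tbb-6 at 2.32 and 19.7 CPM, col-42 and col-98. In the other direction, dod-3, a target of the insulin-signalling factor DAF-16, was at 45.3 and 2.32 CPM, a log2 ratio of -4.28. The phosphate transporter relative pitr-5 was at 43.8 and 2.65 CPM, ZK218.5 at 70.9 and 5.66 CPM and T12D8.5 at 74.9 and 8.23 CPM. The remaining genes were T16G1.5 at 22.5 and 2.67 CPM, K08D9.4 at 24.0 and 3.16 CPM, the noncoding RNA tts-1 at 146 and 19.8 CPM and T10G3.1 at 47.2 and 6.68 CPM. Metabolic genes lay close behind, with icl-1 at 4162 and 843 CPM, the acyl-CoA synthetase acs-2 at 613 and 124 CPM and ftn-1 at 44.2 and 7 CPM, all higher in rWQS019. Both icl-1 and acs-2 are induced by fasting. A list of fasting-induced lipid genes was drawn up after these values were seen. Of its genes, 6 had a mean of at least 5 CPM. Of these 6, 3 were over 2-fold higher in rWQS019, beside 3.08% of all genes. Another 2, lipl-5 at 61.9 and 216 CPM and hacd-1 at 5.56 and 18.3 CPM, were over 2-fold higher in rWQS042, beside 2.49%. A list drawn up this way cannot show whether such genes differed more often than others. Whether fasting had a part in these differences was not tested.

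**Figure D5:**
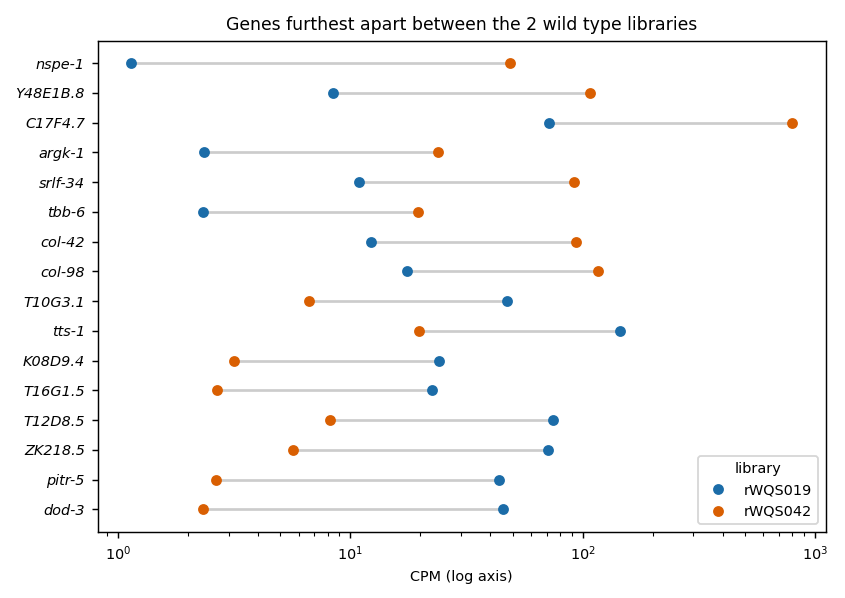
CPM (log axis) of the 8 genes with the largest ratio in each direction among those with a mean of at least 10 CPM, with a point for each library joined by a line. The points of nspe-1, at the top, lie at 1.14 and 48.5 CPM, and those of dod-3, at the bottom, at 45.3 and 2.32 CPM.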

How the data were processed

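Poly(A) RNA of whole wild type L3 larvae was measured in 2 libraries, grouped by genotype label. Per gene, the authors deposited raw counts of reads, neither normalized nor pooled. The methods give a TruSeq RNA kit, without stating whether strand was kept, and STAR alignment to ce10 with annotation WS235. HTSeq is named for counting in the methods and featureCounts in the submitters' processing notes, with versions not given in the sources used here. The mutant counts were not used.

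CPM was computed over all 46748 genes, with totals of 22849521 and 56879896 counts. TPM was computed over 19641 protein-coding genes with exon-union lengths from the Ensembl annotation of WBcel235, which is not the counting annotation. There, 299 gene IDs found no match and held 0.209% and 0.211% of the counts. TPM left out noncoding genes because very short loci inside other genes would take large values. No test was run. Genes were described as over 2-fold apart between the libraries at a mean of at least 5 CPM, with a pseudocount of 0.5 counts in each ratio. The code was tested on simulated data. Scaling by edgeR 4.0.16 (TMM) and DESeq2 1.42.0, other lengths, thresholds and filters, and 1 library at a time were tried.

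Genes named were the 30 highest by TPM, the 3 highest and the lowest of each marker list, the highest of each family, the 8 furthest apart in each direction with a mean of at least 10 CPM, the reference genes, and met-2 and set-25. Other names were chosen after their values were seen. The group, gene lists and measures were chosen with earlier results of these data known.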

Additional observations from a re-analysis of the deposited data

How the results depend on the processing

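Scaling by TMM or by DESeq2 size factors moved none of the 43 values recomputed by more than the spread between the libraries or, for counts, by over 1.5 times. Most of these values were medians of mean levels. The factors of the 2 libraries, 1.014 and 0.9862 under TMM, nearly cancel in such a mean, so this result was largely set in advance. Lengths of the longest transcript, and totals without ribosomal RNA and mitochondrial genes, moved 1 value each, of 39 and 52. Leaving out genes that overlap another annotated gene mattered more. The genes of every type at 1 CPM or more in both libraries then numbered 8390 against 12980, the body wall muscle median was 659 TPM against 391.8 TPM, the hypodermal median 207 TPM against 124 TPM, the somatic gonad median 4.14 TPM against 7.72 TPM, the touch receptor median 4.05 TPM against 8.17 TPM, the glial median 18.8 TPM against 8.004 TPM, the heterochronic median 40.7 TPM against 21.6 TPM, the pharyngeal gland median 18.4 TPM against 30.8 TPM, the yolk protein median 0.0691 TPM against 0.0213 TPM, the sperm median 0.164 TPM against 0.118 TPM, and the X to autosome ratio of mean levels 0.815 against 0.762. That ratio was 1.30 with no minimum level and 0.825 at a minimum mean of 5 TPM, and 0.719 to 0.769 in single libraries when the minimum was applied to that library alone rather than to the mean. Chemoreceptor genes with 0 counts numbered 284, against 797 at up to 3 counts in each library, 1253 under 1 CPM in both, and 431 to 484 in single libraries. The sperm median was 0.122 to 0.156 TPM in single libraries, and the intestinal median was 117 TPM in rWQS019 and 196 TPM in rWQS042. Genes over 2-fold apart numbered 573, against 949 at a minimum mean of 1 CPM. With no minimum they numbered 28855, since the pseudocount alone sets genes with 0 counts in both libraries over 2-fold apart at these depths. No paired analysis was possible because the columns carry no replicate numbers and only 1 genotype was described. With 2 libraries and 22849521 counts in the shallower, genes under 0.131 CPM could not be told from absent.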
